A study of Mus musculus with 12 samples.

Results

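The mitosis and spindle genes are 38 protein-coding mouse genes that were chosen by name for their roles in entering mitosis, building the spindle, attaching chromosomes and dividing the cell. They were found by symbol among the 49671 genes of the deposited count tables, and all 38 were present. All 38 also passed the filter on low counts, and the lowest count of any of them in any library was 62. They were followed in regulatory T cells (Tregs), a CD4+ lineage that holds immune responses in check. The cells came from C57BL/6 mice aged 8 weeks that were WT or Gclc mutant. The Gclc product is the catalytic subunit of the ligase that joins glutamate to cysteine on the way to glutathione. Sorted Tregs taken straight from the mice are called nTregs, and iTregs are naive CD4+ cells that were turned into Tregs in culture. Each of the 4 groups, WT nTregs, mutant nTregs, WT iTregs and mutant iTregs, held 3 libraries. The sources used here do not give the promoter or cell type that drives the mutation, the tissue the cells were sorted from or the length of the iTreg culture. An nTreg differs from an iTreg both in origin and in having been cultured, and these cannot be told apart.

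Cells that commit to division switch on a shared set of genes late in the cycle. Cyclin-dependent kinase 1 and its cyclins drive entry into mitosis, motors and microtubule-binding proteins shape the spindle, and kinetochores tie each chromosome to it. The spindle checkpoint holds the anaphase-promoting complex in check until all chromosomes are attached, and a contractile ring then parts the daughter cells. T cells at rest carry little of this messenger RNA, and activated T cells carry much, so the level in a bulk sample follows both the share of cycling cells and the amount in each of them. In these bulk libraries more cycling cells and more RNA per cycling cell cannot be told apart.

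Total counts ran from 28707579 to 39886130 per library. No source ties a library to its own animal or culture, so p-values cover only the spread between these libraries, which may be technical. Values below are CPM (counts of a gene scaled to 1 common library total), with library sizes adjusted by edgeR's trimmed mean of M-values (TMM). Gclc itself read 70.8 to 79.0 CPM in WT nTregs against 41.7 to 45.8 in mutant nTregs, and 51.9 to 56.5 in WT iTregs against 18.8 to 21.0 in mutant iTregs. Foxp3, the transcription factor that defines Tregs, read 559 to 610.5 CPM in WT nTregs and 135 to 217 in mutant nTregs, and 287 to 300.4 in WT iTregs and 75.5 to 107 in mutant iTregs. Cd4 read 399 to 520.3 CPM over all 12 libraries. Mutant nTreg library 1 stood apart. Its summed level of 12 CD8 and NK cell markers was 1657 CPM, against 186 and 219.7 in the other mutant nTreg libraries, 72.6 to 85.9 in WT nTregs and 37.9 to 89.3 in iTregs. None of the 12 markers was at 0 in any nTreg library, and 3 or 4 were at 0 in each iTreg library, Gzma and Ncr1 among them. Summed B cell markers were 394 to 617 CPM in WT nTregs, 277 to 539 in mutant nTregs and 2.72 to 4.77 in iTregs.

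Many late cell cycle genes share 2 short promoter elements, which bear on genes that move together. The CHR (cell cycle genes homology region) is bound by the MuvB complexes that silence these genes at rest and activate them with B-MYB and FOXM1 before mitosis. The CCAAT box is bound by NF-Y. The RefSeq promoter table (GRCm38.p6) matched 31 of the 38 genes, with 33 windows running from 250 bases before the start base to 50 after it. Aurkb, Ccna2, Cdc25c, Kif20a, Spc24, Stmn1 and Tpx2 were not matched. The letters TTTGAA (CHR) and CCAAT were searched on both strands. A CHR match was held by 26 of 33 windows, or 78.8%, against 17.9% of all 32851 windows in the table. A CCAAT match was held by 78.8% against 37.4%, and both by 69.7% against 7.0%. The E2F letters GCGGGAA or GCGCGAA, counted in the same way, were held by 6.1% of member windows and 6.0% of all windows. Among the 13636 windows of genes tested here, 12.8% held a CHR match, 37.6% a CCAAT match and 10.4% the E2F letters. Of the 29 windows of DNA replication genes, 62.1% held the E2F letters. These replication windows held a CHR match in 10.3% and a CCAAT match in 58.6%, so CCAAT was frequent there too. The 66 windows of other mitotic genes held a CHR match in 53.0% and a CCAAT match in 66.7%, both below the share in the members. A match is a description of letters and not a measured binding site.

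The 5 stretches below show these letters in genes that the results turn on, 5′ to 3′ on the gene's strand, with every match to TTTGAA or CCAAT (or its reverse complement) in capitals. Each begins at position -200 from the RefSeq start base. The last base shown is at 29 for Ccnb2, Mki67 and Ttk, at 20 for Cdc20 and at -80 for Cenpa. Ccnb2 has matches to CCAAT at -87, -54 and -21 and to the CHR at -167 and 4, counted from the start base at 0. Cdc20 has CCAAT at -53 and -8 and the CHR at -18, and Ttk has CCAAT at -65 and -28 and the CHR, reversed, at 7. Mki67 has its matches further upstream, with CCAAT at -188, -166 and -141 and the CHR at -116 and -98. Cenpa, the member with the smallest change between mutant and WT nTregs, also has CCAAT at -109 and -86, and a CHR match at 16 that lies outside the stretch shown.
Ccnb2 (chr9:70421525-70421754, minus strand): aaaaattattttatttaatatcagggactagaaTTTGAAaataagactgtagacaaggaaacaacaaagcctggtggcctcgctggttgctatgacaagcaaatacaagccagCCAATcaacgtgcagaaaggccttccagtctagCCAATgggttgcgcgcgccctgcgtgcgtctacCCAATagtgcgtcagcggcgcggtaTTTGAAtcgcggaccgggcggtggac
Cdc20 (chr4:118437323-118437543, minus strand): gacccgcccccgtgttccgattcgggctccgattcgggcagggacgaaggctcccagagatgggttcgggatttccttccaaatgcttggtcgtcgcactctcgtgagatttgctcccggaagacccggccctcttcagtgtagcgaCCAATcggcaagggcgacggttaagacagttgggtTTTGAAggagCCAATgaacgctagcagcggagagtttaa
Ttk (chr9:83834489-83834718, plus strand): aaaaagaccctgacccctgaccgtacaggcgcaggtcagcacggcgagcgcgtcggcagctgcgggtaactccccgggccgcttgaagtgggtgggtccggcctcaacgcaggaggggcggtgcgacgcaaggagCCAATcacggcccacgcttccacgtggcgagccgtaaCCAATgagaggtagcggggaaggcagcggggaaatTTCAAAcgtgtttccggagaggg
Mki67 (chr7:135716350-135716579, minus strand): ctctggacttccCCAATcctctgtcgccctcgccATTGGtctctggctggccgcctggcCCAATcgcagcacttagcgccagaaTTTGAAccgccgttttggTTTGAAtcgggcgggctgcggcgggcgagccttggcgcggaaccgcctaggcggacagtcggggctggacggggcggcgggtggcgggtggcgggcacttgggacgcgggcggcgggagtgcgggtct
Cenpa (chr5:30666686-30666806, plus strand): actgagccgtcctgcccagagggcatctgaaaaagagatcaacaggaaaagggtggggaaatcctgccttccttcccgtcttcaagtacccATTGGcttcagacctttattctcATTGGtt

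Across the matched genes the CHR lay at a median of 2 bases past the start, with quartiles at -30 and 21, and CCAAT at a median of -69. Birc5, Mad2l1, Nuf2 and Nusap1 held neither set of letters in this window. The 24 genes with a CHR match and the 7 without had medians of 1.66 and 1.67 for the log2 fold change of mutant against WT nTregs, and of 0.70 and 0.75 for iTregs. Within the set, having the letters or not went with close medians of the change.

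**Figure D1:**
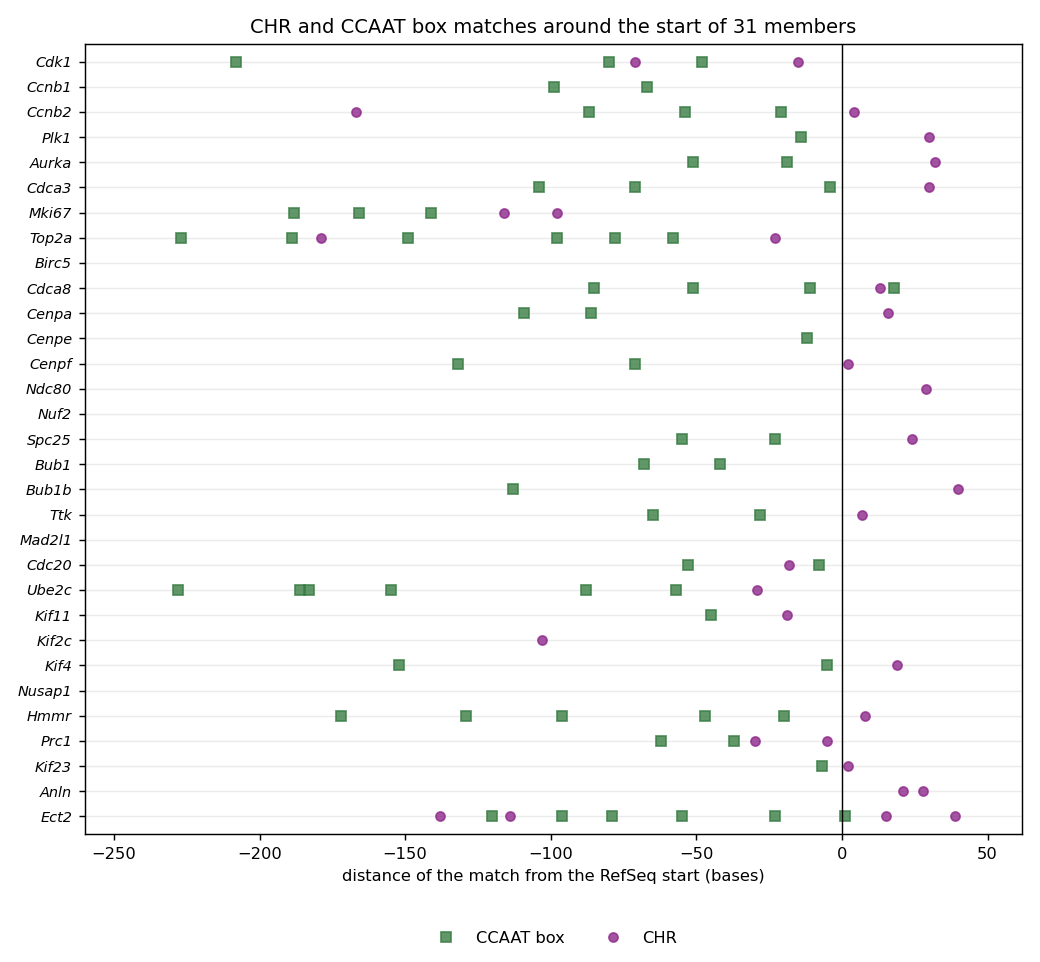
Position of each CHR (circle) and CCAAT box (square) match in the promoter windows of 31 genes, as bases from the RefSeq start (0, vertical line). The windows of Ect2 and Prc1, which have 2 starts each, are drawn in 1 row per gene. CHR matches gather at the start and CCAAT matches before it, and Birc5, Nuf2, Mad2l1 and Nusap1 have neither.

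In nTregs the mutation went with higher mitotic gene RNA in nearly the whole set. Of 38 genes, 37 were higher in mutant nTregs and 0 lower by edgeR's quasi-likelihood test at an adjusted p below 0.05, where 19.3% of the 17977 genes tested were called higher and 15.6% lower. The median log2 fold change was 1.67 (3.19-fold), against 0.04 over all genes tested. Apart from Cenpa, the changes ran from 1.12 (Ndc80) to 1.96 (Ccnb1). For all 38 genes every mutant library lay above every WT library, which held for 25.7% of all genes tested. The summed level of the set was 919 to 1282 CPM in WT nTregs and 2855 to 4728 in mutant nTregs. Mutant nTreg library 1 was the highest of its group for all 38 genes, at a median of 1.71 times the other mutant libraries, and WT nTreg library 3 was the lowest of its group for all 38. Without mutant library 1, 37 genes were still called higher, where 18.3% of all genes tested were, and the median was 1.41. That library also carried the most CD8 and NK cell marker RNA, and 10 of 12 of those markers were called higher in mutant nTregs. Without it 7 of 12 were called, and Cd8a read 19.1 and 27.2 CPM in the other mutant libraries against 4.81 ± 1.38 (SD, n = 3) in WT. The part of other cell types in the rise of the mitotic genes was not tested.

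**Figure D2:**
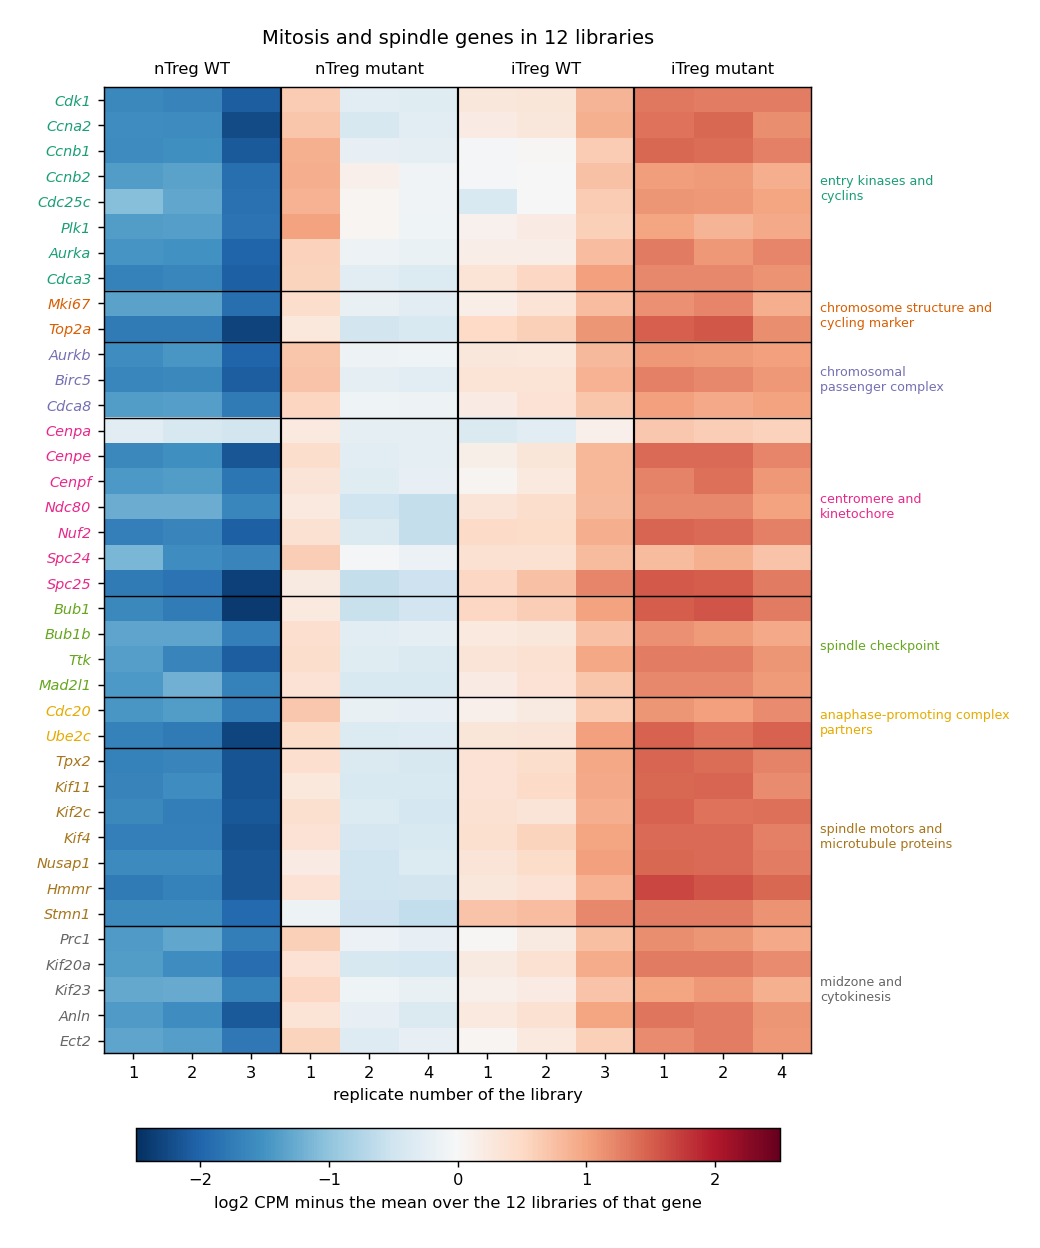
Heat map of the 38 genes (rows, grouped and coloured by role) in the 12 libraries (columns, by group and replicate number). Colour gives log2 CPM minus the gene's mean over the 12 libraries, with red high and blue low. WT nTregs are lowest and mutant iTregs highest in nearly every row, with Cenpa the palest, and mutant nTreg library 1 and WT iTreg library 3 are the highest of their groups throughout.

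In iTregs the same genes were also higher in the mutant, by a smaller amount. Of 38 genes, 29 were called higher and 0 lower, where 14.0% of all genes tested were called higher and 11.4% lower. The median log2 fold change was 0.73 (1.65-fold), against 0.04 over all genes tested, and all 38 values were positive, from 0.28 (Spc24) to 1.12 (Ccnb1). For 36 genes every mutant library lay above every WT library, which held for 26.8% of all genes tested. Stmn1 and Spc24 were the exceptions. The 9 genes that did not pass were Ccnb2, Plk1, Cdca3, Birc5, Aurkb, Spc25, Ttk, Stmn1 and Spc24, with adjusted p from 0.0509 to 0.314. The set summed to 4356, 4724 and 6627 CPM in WT iTreg libraries 1, 2 and 3, and to 7619 to 8953 in mutant iTregs. WT iTreg library 3 was the highest of its group for all 38 genes, at a median of 1.47 times the others. The count rested on single libraries: without WT iTreg library 1 or 2, 2 genes passed (Cenpa and Hmmr), without mutant iTreg library 1, 7 passed, and without mutant iTreg library 2, 11 passed. The calls over all genes fell in the same fits, from 14.0% higher to 4.19% and 5.12% without WT iTreg library 1 or 2, and to 6.32% and 8.01% without mutant iTreg library 1 or 2. The 2 members called without WT iTreg library 1 or 2 are thus near the share over all genes. Without WT iTreg library 3 the count was 36, with 12.5% of all genes called higher, and the median stayed between 0.60 and 0.93 over all such fits.

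The change was larger in nTregs than in iTregs for 37 of 38 genes, as fitted. The difference itself, the iTreg effect minus the nTreg effect, was called below 0 for 14 genes and above 0 for 0, where 7.18% of all genes tested were called below 0 and 6.12% above. Its median was -0.93 on the log2 scale, and 35 of 38 genes had an unadjusted p below 0.05, as had 30.0% of all genes tested. The 14 were Spc24, Plk1, Cdca3, Aurkb, Birc5, Ccnb2, Spc25, Top2a, Cdca8, Kif4, Tpx2, Stmn1, Kif23 and Bub1b, which span all roles but the partners of the anaphase-promoting complex. Cenpa alone went the other way, at 0.46 ± 0.20 (SE, adjusted p = 0.142 by edgeR). Across the 38 genes the sizes of the nTreg and iTreg effects, which share no library, were weakly related (Pearson r 0.18, Spearman rho 0.22, and 0.35 and 0.26 over the 37 genes other than Cenpa). These points share libraries within each axis, so the figures describe the set only. The count of 14 moved with the libraries and settings. It was 4 without WT nTreg library 3 or without mutant iTreg library 1 or 2, and 5 without WT nTreg library 1 or 2 or WT iTreg library 3. It was 6 without WT iTreg library 2, 7 without mutant iTreg library 4 and 10 without WT iTreg library 1. Without mutant nTreg library 2 it was 19, and without mutant nTreg library 4 it was 25. In these fits 3.32% to 7.74% of all genes tested were called below 0. Without mutant nTreg library 1, 19 members were called in either direction, with Cenpa above 0. In that fit 11.7% of all genes tested were called below 0 and 5.82% above. With library sizes unscaled the count was 28, where 13.3% of all genes were called below 0 and the median over all genes moved to -0.14.

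**Figure D3:**
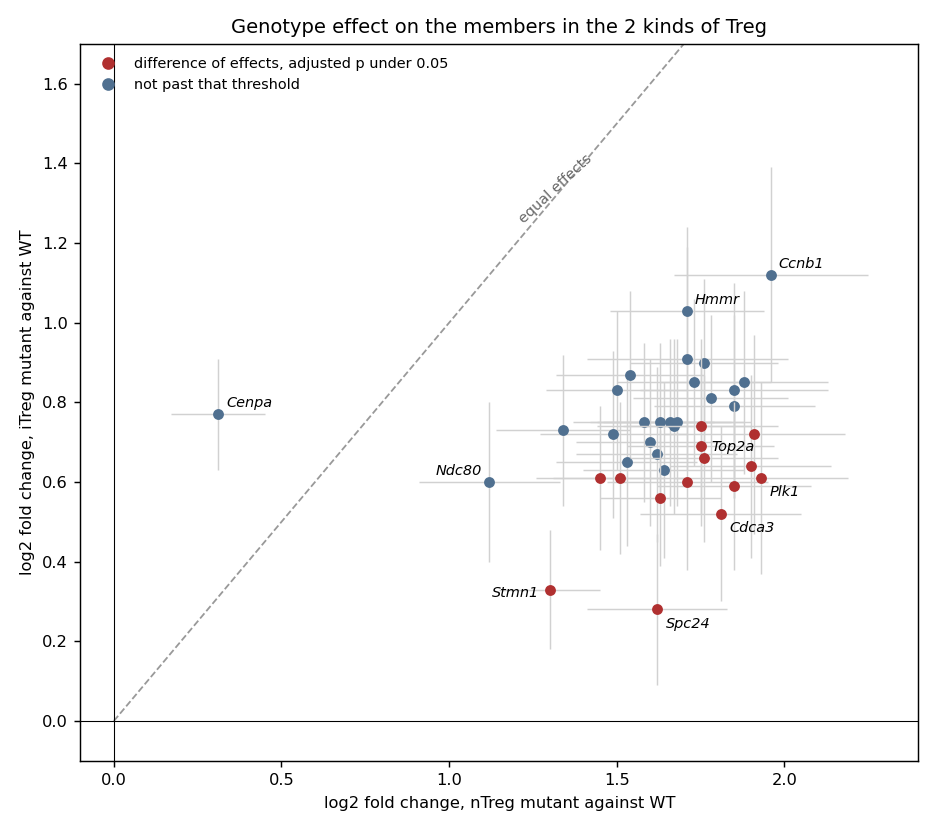
Log2 fold change of mutant against WT in nTregs (horizontal) and in iTregs (vertical) for each of the 38 genes, with the SE as bars. Red points are the 14 genes whose difference of effects passed an adjusted p of 0.05. All points but Cenpa lie below the dashed line of equal effects, and all lie above 0 on both axes.

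Induced Tregs carried more of this RNA than fresh ones in both genotypes. In WT cells 37 genes were higher in iTregs than in nTregs, where 33.7% of all genes tested were called higher, with a median log2 fold change of 2.17 (4.5-fold). Spc25 had the highest value at 2.82, and Cenpa, at 0.23 ± 0.14 (SE, adjusted p = 0.173 by edgeR), did not pass. In mutant cells 37 genes were higher in iTregs, where 33.2% of all genes tested were called higher, with a median of 1.24 (2.36-fold). Plk1, at 0.53 ± 0.24 (SE, adjusted p = 0.065 by edgeR), did not pass there. The group means ran in the order WT nTregs, mutant nTregs, WT iTregs, mutant iTregs for 33 of 38 genes. For 8 genes (Top2a, Ndc80, Nuf2, Spc25, Bub1, Kif11, Kif4 and Nusap1) the 4 groups kept that order with no overlapping libraries, which held for 4.12% of all genes tested. The middle step was the least clear: every WT iTreg library lay above every mutant nTreg library for 9 of 38 genes. The share over all genes was not counted for the 33 or for the 9, so these counts describe the members only.

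**Figure D4:**
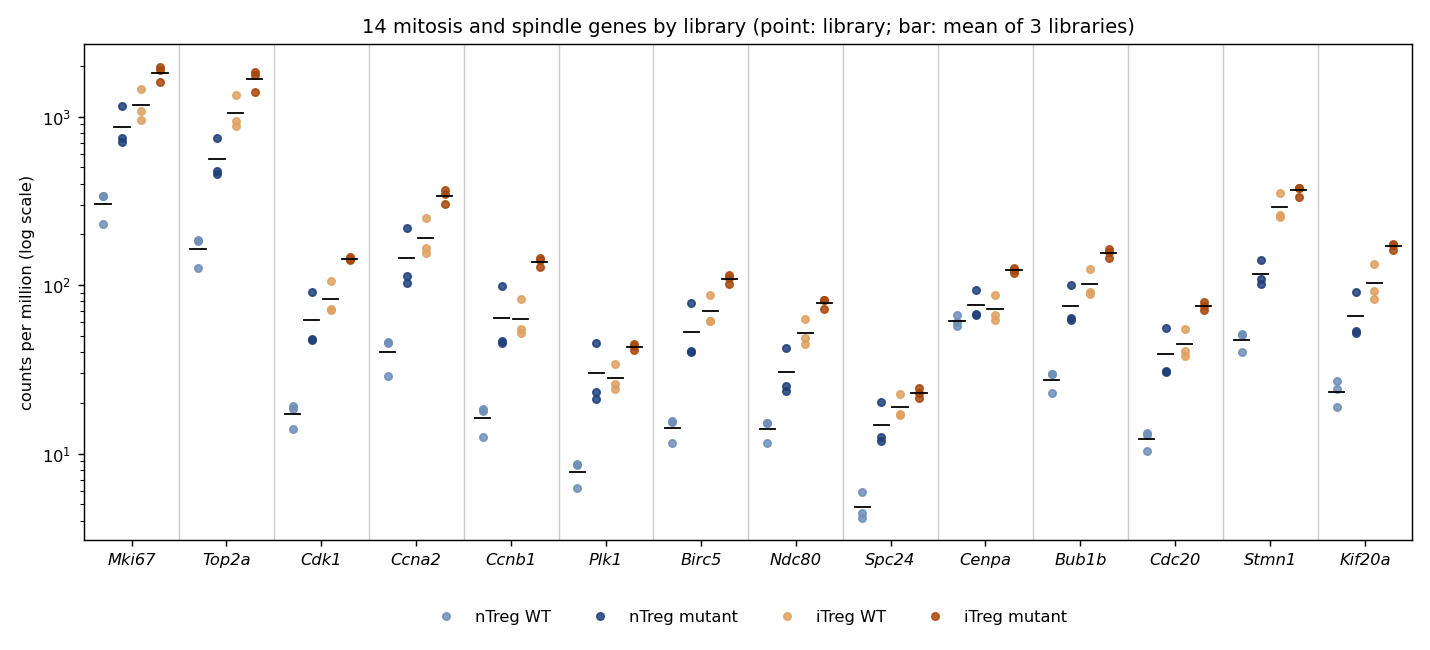
CPM on a log scale of the 14 genes given library by library, with 1 point per library and a bar at the mean of each group of 3. In each gene but Cenpa the WT nTreg points lie well below the rest and the mutant iTreg points at or near the top, while mutant nTregs and WT iTregs overlap for several genes, such as Ccnb1 and Plk1.

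Library values are given in the order 1, 2 and 3 for WT and 1, 2 and 4 for mutant. The genes of mitotic entry were kinases and cyclins, besides Cdc25c and Cdca3. All 8 were called higher in mutant nTregs, with a median log2 fold change of 1.85. This was the same as in the passenger complex and higher than in the other roles. Cdk1, the kinase that triggers mitosis, read 19.2, 18.3 and 14 CPM in WT nTregs, 90.4, 47.7 and 47.2 in mutant nTregs, 71.0, 71.6 and 105 in WT iTregs and 146, 142 and 141 in mutant iTregs. Its groups overlapped only between mutant nTregs and WT iTregs, and it rose by 1.85 ± 0.24 (log2, SE) in nTregs and 0.79 ± 0.23 in iTregs. Ccna2 (cyclin A2, a Cdk1 and Cdk2 partner) had the highest level per kilobase of exon in this role. It read 46.1, 45.2 and 28.9 CPM in WT nTregs, 218, 103 and 113 in mutant nTregs, 155, 165 and 250.2 in WT iTregs and 348, 365 and 303 in mutant iTregs. Mutant nTreg library 1 here lay above 2 of the 3 WT iTreg libraries.

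Ccnb1 (cyclin B1, the main partner of Cdk1 in mitosis) had the largest genotype effect in both kinds of Treg. It read 17.9, 18.5 and 12.5 CPM in WT nTregs, 98.8, 46.4 and 45.3 in mutant nTregs, 52.2, 54.5 and 82.5 in WT iTregs and 144, 141 and 128 in mutant iTregs. The mean of mutant nTregs (63.5) was level with that of WT iTregs (63.1). It rose by 1.96 ± 0.29 (log2, SE) in nTregs and by 1.12 ± 0.27 in iTregs. Its value is uncertain because reads aligning to several places were counted at each, and it shares stretches of 60 bases with 5 pseudogenes, of which Ccnb1-ps alone held 15460 counts against 28408 for Ccnb1 over the 12 libraries. Plk1, a kinase that matures centrosomes and helps activate Cdk1, read 8.52, 8.66 and 6.26 CPM in WT nTregs, 45.4, 23.3 and 21.1 in mutant nTregs, 24.3, 25.9 and 34.1 in WT iTregs and 44.5, 40.9 and 43.6 in mutant iTregs. Mutant nTreg library 1 was above every mutant iTreg library, so the 2 mutant groups overlapped. Plk1 rose by 1.93 ± 0.26 in nTregs and did not pass in iTregs (0.61 ± 0.24, adjusted p = 0.0763 by edgeR). Of the remaining 4, Ccnb2 (cyclin B2), Cdc25c (the phosphatase that activates Cdk1), Aurka (a centrosome kinase) and Cdca3 (a trigger of Wee1 turnover) rose by 1.71 to 1.91 in nTregs. In iTregs Cdc25c (0.91) and Aurka (0.81) rose, while Ccnb2 (0.72) and Cdca3 (0.52) did not pass.

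Mki67, which coats mitotic chromosomes and is the usual marker of cycling cells, read 337, 337 and 229 CPM in WT nTregs and 1156, 744 and 707 in mutant nTregs. It read 954, 1079 and 1458 in WT iTregs and 1879.9, 1979 and 1602 in mutant iTregs. The genotypes did not overlap in either kind of cell, and the changes were 1.53 ± 0.21 (log2, SE, 2.89-fold) in nTregs and 0.65 ± 0.21 (1.56-fold) in iTregs, both past the threshold. Top2a, the topoisomerase that untangles sister chromatids, read 184, 182 and 126 CPM in WT nTregs and 744, 454 and 477 in mutant nTregs. It read 874, 942 and 1345 in WT iTregs and 1766, 1836 and 1399.8 in mutant iTregs. For Top2a no 2 of the 4 groups overlapped, and the rise was 1.76 ± 0.22 in nTregs and 0.66 ± 0.21 in iTregs. Per kilobase of exon, Mki67 (103 CPM over all libraries), Top2a (95.5) and Stmn1 (106) stood above all other members, the next being Kif11 at 49.5.

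The chromosomal passenger complex, which corrects faulty attachments and later guides cytokinesis, had all 3 of its members called higher in mutant nTregs. Its kinase Aurkb, its survivin subunit Birc5 and its borealin subunit Cdca8 rose by 1.85, 1.90 and 1.63 (log2) in nTregs. Birc5 read 15.4, 15.6 and 11.5 CPM in WT nTregs, 78.2, 40.6 and 40.0 in mutant nTregs, 60.9, 61.1 and 87.2 in WT iTregs and 114, 110.1 and 102 in mutant iTregs. All its mutant libraries lay above the WT ones within each kind of cell. In iTregs Cdca8 alone passed (0.56 ± 0.17, SE), with Birc5 at 0.64 ± 0.23 (adjusted p = 0.0563 by edgeR) and Aurkb at 0.59 ± 0.21 (adjusted p = 0.0582). The difference of effects was called for all 3, at -1.07 to -1.27.

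The 7 centromere and kinetochore genes held both the smallest and some of the larger changes. Ndc80, Nuf2, Spc24 and Spc25 form the Ndc80 complex that grips microtubules, Cenpe is a kinetochore motor, Cenpf a transient kinetochore protein, and Cenpa the histone H3 variant that marks the centromere. Ndc80 read 15.1, 15.1 and 11.6 CPM in WT nTregs, 42.2, 25.3 and 23.5 in mutant nTregs, 44.6, 48.4 and 62.8 in WT iTregs and 81.6, 81.8 and 72.0 in mutant iTregs. The 4 groups did not overlap, and the genotype effects were 1.12 ± 0.21 (log2, SE) in nTregs and 0.60 ± 0.20 in iTregs. Spc24 read 5.90, 4.45 and 4.15 CPM in WT nTregs, 20.2, 12.6 and 11.8 in mutant nTregs, 17.0, 17.1 and 22.6 in WT iTregs and 22.8, 24.4 and 21.4 in mutant iTregs. In iTregs its genotypes overlapped (0.28 ± 0.19, adjusted p = 0.314 by edgeR), whereas in nTregs it rose by 1.62 ± 0.21. The difference of -1.34 ± 0.28 (adjusted p = 0.0113 by edgeR) was the largest of the set. The other members of its complex, Nuf2 and Spc25, changed by 1.66 and 1.71 in nTregs and by 0.75 and 0.60 in iTregs, where Spc25 did not pass.

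Cenpa read 66.4, 60 and 57.4 CPM in WT nTregs, 93.8, 67.0 and 66.8 in mutant nTregs, 61.9, 66.0 and 86.9 in WT iTregs and 126, 122 and 118 in mutant iTregs. WT nTregs were thus already close to the 2 middle groups, and mutant iTregs stood above all others. The change was 0.31 ± 0.14 (log2, SE, adjusted p = 0.109 by edgeR) in nTregs, and 0.16 without mutant nTreg library 1, against 0.77 ± 0.14 (adjusted p = 0.00345) in iTregs. In WT nTregs Cenpa had 10.5 CPM per kilobase, more than Cdk1 (4.97) or Ccna2 (9.82). It lay below Mki67 (29.9), Stmn1 (24.6), Top2a (18.2) and Kif11 (10.9) there. Its count is uncertain as well: stretches of 60 bases of its transcripts were found in transcripts of 100 other genes, and for Spc24 this number was 105. Such stretches were also shared by Cdca8 (75 other genes), Kif23 (43), Kif11 (32), Nuf2 (23) and Cdc25c (21), whose counts are uncertain too, while the remaining members shared such stretches with 0 to 5 other genes. Whether such shared stretches set the level in WT nTregs was not tested. Cenpe and Cenpf rose by 1.76 and 1.5 in nTregs and by 0.90 and 0.83 in iTregs.

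All 4 spindle checkpoint genes were higher in mutant nTregs, by 1.34 (Mad2l1) to 1.67 (Bub1) on the log2 scale. Bub1 and Ttk (MPS1) are the kinases that start the checkpoint signal, and Mad2l1 and Bub1b (BUBR1) help form the complex that blocks anaphase. Bub1b read 29.8, 29.7 and 22.9 CPM in WT nTregs, 99.6, 61.8 and 63.8 in mutant nTregs, 88.2, 90.6 and 124 in WT iTregs and 164, 156 and 144 in mutant iTregs. Mutant nTreg library 1 again lay within the WT iTreg range, and the genotypes did not overlap in either kind. In iTregs Bub1 (0.74), Mad2l1 (0.73) and Bub1b (0.61) rose, and Ttk (0.63 ± 0.22, SE, adjusted p = 0.0538 by edgeR) did not pass.

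Cdc20, the activator of the anaphase-promoting complex that the checkpoint restrains, read 12.8, 13.2 and 10.4 CPM in WT nTregs, 55.5, 30.8 and 30.3 in mutant nTregs, 38, 40.7 and 55 in WT iTregs and 74.8, 71.1 and 79.3 in mutant iTregs. Ube2c is the E2 enzyme that starts ubiquitin chains for the same complex. Cdc20 and Ube2c rose by 1.68 and 1.88 (log2) in nTregs and by 0.75 and 0.85 in iTregs, and the genotypes did not overlap. Of the 16 genes for core subunits of the complex and its other partners, 4 were called higher and 1 lower in mutant nTregs, with a median of 0.13. In mutant iTregs 3 were called higher and 1 lower, with a median of 0.12. Of all genes tested, 19.3% were called higher and 15.6% lower in nTregs, and 14.0% and 11.4% in iTregs. The calls in this list of 16 were thus near the share over all genes. The called genes of that list with the largest changes in nTregs were Ube2s (1.23), the E2 that extends ubiquitin chains, and Fzr1 (0.71), the G1 activator of the complex.

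Among spindle motors and microtubule proteins all 7 were higher in mutant nTregs, from 1.30 (Stmn1) to 1.75 (Tpx2, which nucleates spindle microtubules, and Kif4, a chromosome-bound motor). Kif11 pushes spindle poles apart, Kif2c removes tubulin at kinetochores, and Nusap1 and Hmmr bind spindle fibres. Stmn1 (stathmin), which promotes microtubule disassembly, read 50.9, 50.8 and 40.0 CPM in WT nTregs, 140.3, 108 and 101 in mutant nTregs, 252, 262 and 354 in WT iTregs and 379, 378 and 335 in mutant iTregs. Its step from WT nTregs to WT iTregs was 2.62 ± 0.16 (log2, SE), above its genotype effect in nTregs. The medians of all 38 members had the same order, at 2.17 and 1.67. In iTregs the genotypes overlapped for Stmn1 (0.33 ± 0.15, adjusted p = 0.117 by edgeR). Stmn1 shares stretches with the pseudogene Gm11223, which held 39954 counts against 83492 for Stmn1, so its level is uncertain. The remaining 6 motor and microtubule genes rose in iTregs, by 0.69 (Kif4) to 1.03 (Hmmr).

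The 5 genes of the midzone and of cytokinesis passed in both comparisons, by 1.49 to 1.62 (log2) in nTregs and 0.61 to 0.87 in iTregs. Prc1 bundles midzone microtubules, Kif20a and Kif23 are midzone motors, Anln (anillin) scaffolds the contractile ring, and Ect2 activates RhoA there. Kif20a read 26.8, 24.2 and 19.0 CPM in WT nTregs, 90.4, 53.6 and 52.1 in mutant nTregs, 83.0, 91.8 and 134 in WT iTregs and 173, 175 and 161 in mutant iTregs. Its genotypes did not overlap in either kind of Treg. Kif23 alone of these 5 was called for the difference of effects, at -0.91 ± 0.27 (SE, adjusted p = 0.0469 by edgeR).

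Other genes of mitosis, written as a list of 71 that excludes the 38, moved alongside. In mutant nTregs 66 were called higher and 1 lower, with a median log2 fold change of 1.56, and in mutant iTregs 40 were called higher and 0 lower, with a median of 0.59. Without mutant nTreg library 1 the nTreg count was 65, where 18.3% of all genes tested were called higher. Nek2 (a centrosome kinase, 1.98), Kif14 (a cytokinesis motor, 1.91) and Depdc1b (1.90) had the largest changes among called genes of at least 5 CPM in nTregs, and Depdc1a, Cep55 and Aspm (0.84 to 0.85) in iTregs. Smc4, a condensin subunit named here after its value was seen, was the only one called lower, at -0.58 ± 0.09 (SE) in nTregs. Genes of cohesin, the centrosome and tubulin, many of which serve cells that do not divide, went both ways. Of 28, 9 were called higher and 5 lower in mutant nTregs, and 7 higher and 2 lower in mutant iTregs. Over all genes tested, 19.3% were called higher and 15.6% lower in nTregs, and 14.0% and 11.4% in iTregs. Tuba1b, Tuba1c and Tubb4b (0.81 to 0.97) had the largest nTreg changes among the called genes of this list of 28 with at least 5 CPM.

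DNA replication genes, which act in S phase, gave a measure of the earlier part of the cycle. In mutant nTregs all 30 were called higher, with a median log2 fold change of 1.23, against 1.67 for the mitotic genes. In mutant iTregs 6 were called higher and 1 lower, with a median of 0.31, against 0.73. Among all genes tested, 19.3% were called higher in mutant nTregs, and 14.0% higher and 11.4% lower in mutant iTregs. The summed CPM of the 38 mitotic genes over that of the 30 replication genes was 0.84 to 1.01 in WT nTregs and 1.29 to 1.34 in mutant nTregs. It was 1.16 to 1.47 in WT iTregs and 1.65 to 1.73 in mutant iTregs. The ratio did not overlap between the genotypes in either kind of cell, so mitotic RNA was higher in the mutant relative to replication RNA as well. WT iTreg library 3 had the highest ratio of its group, as it had the highest level of every member.

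**Figure D5:**
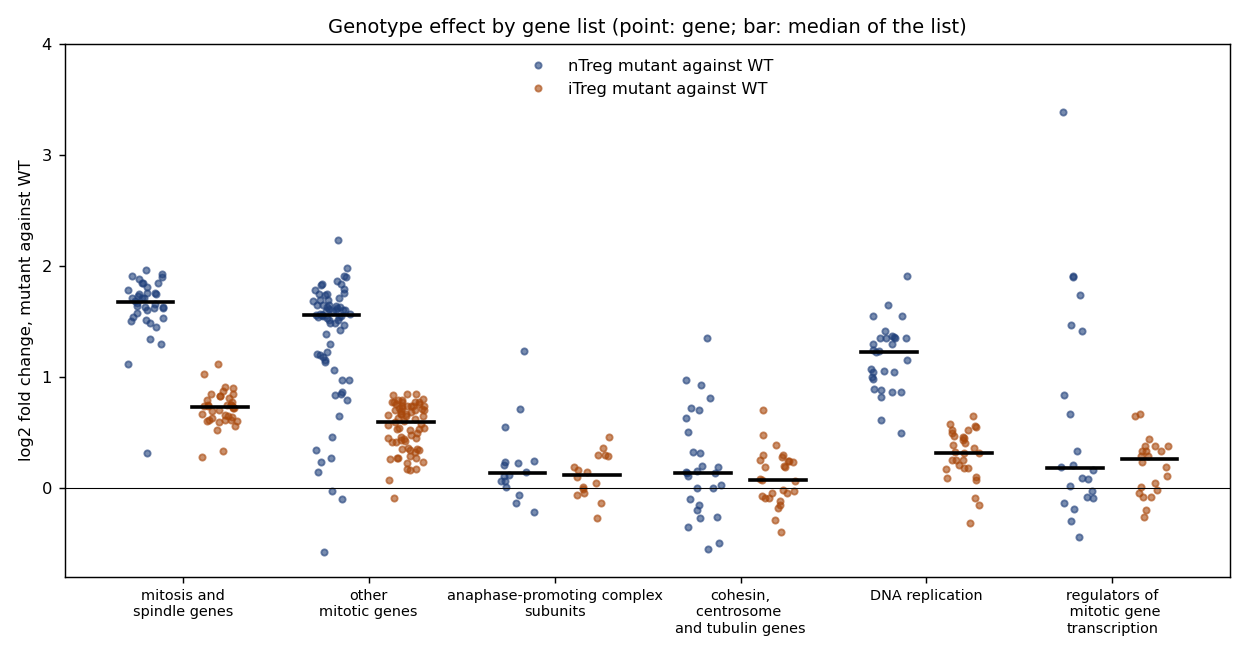
Log2 fold change of mutant against WT for each gene (point) of 6 lists in nTregs (blue) and iTregs (orange), with the median of the list as a bar. The mitosis and spindle genes and the other mitotic genes have medians of 1.67 and 1.56 in nTregs and 0.73 and 0.59 in iTregs, while the subunits of the anaphase-promoting complex and the cohesin, centrosome and tubulin genes centre near 0.

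Of the 22 regulators of mitotic gene transcription, 9 were called higher and 2 lower in mutant nTregs, and 5 higher and 1 lower in mutant iTregs. The shares over all genes tested were 19.3% higher and 15.6% lower in nTregs, and 14.0% and 11.4% in iTregs. Foxm1, which activates late cell cycle genes, read 21.7, 21.0 and 15.8 CPM in WT nTregs, 70.5, 47.7 and 43.5 in mutant nTregs, 82.2, 87.6 and 119.7 in WT iTregs and 121, 122 and 109 in mutant iTregs. It rose by 1.47 ± 0.19 (log2, SE) in nTregs, and in iTregs the genotypes overlapped (0.29 ± 0.18, adjusted p = 0.27 by edgeR). Mybl2 (B-MYB), the activator that joins MuvB, had means of 7.59 and 28.5 CPM in WT and mutant nTregs, a rise of 1.91 ± 0.21. In iTregs its means were 28 and 38 (0.44 ± 0.20, adjusted p = 0.118 by edgeR). The difference of effects was called for both, at -1.18 for Foxm1 and -1.47 for Mybl2. Rbl2 (p130), which holds these genes silent at rest, had means of 239 and 254 CPM in WT and mutant nTregs (0.09 ± 0.07, adjusted p = 0.331 by edgeR) and of 103 and 106 in iTregs.

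Cdkn1a (p21), an inhibitor of cyclin-dependent kinases, was also higher where the mitotic genes were. It read 1.90, 2.36 and 2.14 CPM in WT nTregs, 29.5, 18.3 and 19.6 in mutant nTregs, 100, 131 and 152 in WT iTregs and 180.3, 162 and 266 in mutant iTregs. The groups did not overlap, and the changes were 3.39 ± 0.27 (log2, SE) in nTregs and 0.67 ± 0.21 in iTregs. Mutant nTreg library 1 and WT iTreg library 3, the highest of their groups for all 38 mitotic genes, were also the highest for Cdkn1a. In mutant iTregs the order differed: library 4, the lowest of its group for 32 of 38 mitotic genes, was the highest for Cdkn1a.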

How the data were processed

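The deposited files hold 1 table of integer gene counts per library, and the counts were used as deposited. Per the file headers, the authors counted reads at Ensembl GRCm38 (release 87) exons with featureCounts 1.5.2, reverse-stranded, with multi-mapping reads counted at every alignment and each read given to the gene of largest overlap. Per the submitters' processing notes, bcl2fastq 2.18.0.12, STAR 2.5.2b, Subread 1.5.2 and mm10 were used. Per the labels' protocols, RNA came from a NucleoSpin kit and libraries from the TruSeq Stranded mRNA kit. Symbols were matched for 49326 of 49671 genes, and 345 had none.

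edgeR 4.0.16 (R 4.3.3) tested 17977 genes kept by filterByExpr, with TMM scaling, 1 mean per group, 8 residual degrees of freedom, glmQLFit and the two-sided quasi-likelihood F-test. Adjusted p-values are Benjamini-Hochberg over all genes tested within a comparison, and a gene was called below 0.05. The SE is the log2 fold change over the root of that F. CPM use the TMM library sizes, and CPM per kilobase uses the exon length in the files. The 5 comparisons set the mutant against WT within each kind of Treg, these 2 effects against each other, and iTregs against nTregs within each genotype. The genotype comparisons share libraries with the others. Between libraries of 1 group, chi-square per degree of freedom was 4.48 to 51.47, so none was a copy.

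The members, the gene lists and the alternatives were chosen with earlier results of these data known. All 38 members are named by role. Values in every library are given for the member of each role with the highest CPM per kilobase, for Mki67, Top2a, Cdk1, Ccnb1 and Plk1, and for the members with the largest and smallest change in each genotype comparison. From other lists, up to 3 called genes with the largest change and 5 CPM or more in a compared group's mean were open to be named, with Gclc, Foxp3, Foxm1, Mybl2, Rbl2, Cdkn1a and Cd8a whatever their values. Alternatives were DESeq2 1.42.0, RLE scaling or none, all genes or those of 1 CPM in 3 libraries, only the libraries compared, a block for the replicate number, and leaving out single libraries. Stretches shared with other genes were sought as exact matches of 60 bases in GENCODE M21 transcripts. Promoter windows came from a RefSeq table (GRCm38.p6). The lists of germinal centre and plasma cell, myeloid and erythroid markers were summed too: in nTregs the sums were 215 to 294, 68.2 to 101 and 195 to 1045 CPM, and in iTregs 183 to 232, 19.2 to 23.2 and 433 to 935. The erythroid sum in iTregs is nearly all Tfrc, which dividing T cells also express.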

Additional observations from a re-analysis of the deposited data

Results flagged for a closer look

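The genotype effect differed between iTregs and nTregs, by the edgeR test of the difference itself (iTreg effect minus nTreg effect, log2, adjusted over all genes tested), for 14 of the 38 genes, all with the smaller effect in iTregs. In order of size these were Spc24 at -1.34, Plk1 at -1.32, Cdca3 at -1.28, Aurkb at -1.27, Birc5 at -1.26, Ccnb2 at -1.18 and Spc25 at -1.11. They continued with Top2a at -1.10, Cdca8 at -1.07, Kif4 at -1.06, Tpx2 at -1.01, Stmn1 at -0.97, Kif23 at -0.91 and Bub1b at -0.84. The SE of these values ran from 0.21 (Stmn1) to 0.36 (Ccnb2). Adjusted p ran from 0.0113 (Spc24) to 0.0499 (Bub1b).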

How the results depend on the processing

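No member's fold change and no median of the members changed sign under any alternative. The count of 37 members higher in mutant nTregs stayed at 37 and the median between 1.41 and 1.8 when each library was left out. Over all genes, 13.5% to 19.6% were called higher in these nTreg fits. The count of 29 in iTregs ran from 2 to 36 on leaving out a library, and the median from 0.60 to 0.93. Over all genes, 4.19% to 17.2% were called higher there, and 3.32% to 11.7% were called lower for the difference. For the difference of the effects, members called lower ran from 4 to 25, members called higher from 0 to 1 (Cenpa, without mutant nTreg library 1 or WT iTreg library 3), and the median from -1.05 to -0.71. Instead of 14, the difference was called lower for 28 members with library size alone, 30 without a filter, 25 with the filter of 1 CPM and 28 with DESeq2. The share of all genes called lower was 13.3%, 4.32%, 11.1% and 10.6% in these fits, against 7.18%. Library size alone moved the median of all genes from 0.04 to -0.04 in iTregs, by -0.14 for the difference and to -0.20 for mutant iTregs against nTregs. The share of calls that were higher moved from 55.4% to 65.4% (nTregs), 55.2% to 35.5% (iTregs), 46.0% to 17.8% (difference) and 48.7% to 36% (mutant iTregs against nTregs), so over all genes in iTregs most calls became lower. The filter of 1 CPM moved it to 45.0% in iTregs and 34.4% for the difference. The cause of these shifts was not tested.

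With the replicate number as a block, 37 members were called higher in nTregs, 24 in iTregs and 6 lower for the difference. Over all genes that fit called 16.2% higher in nTregs, 9.33% higher in iTregs and 4.57% lower for the difference. In the main fit these shares were 19.3%, 14.0% and 7.18%, so calls over all genes fell too. With the number within genotype as the block, 7 members were called lower for the difference, as were 4.28% of all genes. Same-numbered libraries of a genotype did not deviate together over all genes (r from -0.064 to 0.05, and from -0.097 to 0.093 for other numbers). A shared animal need not show in such values, so whether same-numbered libraries share one is not known. Leaving a library out leaves a group of 2, whose spread is pooled with the other groups. Depth was no limit for the members, since their lowest count was 62. With 3 libraries a group the precision is set by the spread between libraries.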
